A study of Mus musculus with 2 samples.

Results

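Transcripts of 10 genes of prostaglandin synthesis, breakdown and reception were examined in uterine epithelium of Stat3 knockout mice and of control mice on day 4 of pregnancy. The genes were chosen by name, with earlier results of these data known. The Affymetrix Mouse Genome 430A 2.0 array read 12393 genes in all through a probe set paired with 1 gene, 9 of these 10 among them. The 10 genes were the phospholipase gene Pla2g4a, the cyclooxygenase genes Ptgs1 and Ptgs2, the terminal synthase genes Ptges and Ptgis, the dehydrogenase gene Hpgd, the receptor genes Ptger2, Ptger3 and Ptger4, and the lysophosphatidic acid receptor gene Lpar3. The platform annotation paired 14 probe sets with these 9. It named Ptgs1 for 0 probe sets, alone or with other genes, and Ptgs1 was not analysed here. Values are MAS5 signals, the background-corrected brightness of a probe set on a linear scale, and the value of a gene is that of its brightest probe set. Signals under 14.0, the 40th percentile of all signals, were set to that floor, and a gene under the floor on both arrays received no ratio.

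The Stat3 knockout group carried the label Stat3 knockout, and the control group is titled Stat3 flox control mice. Each group was 1 array of total RNA from epithelium released by trypsin, pooled from n = 3 per sample in the design text. The Cre driver, the strain and the age of the mice stay unnamed in the labels, and both samples carry the same title, so the genotype label separates them. For both samples the extraction text speaks of stromal cells of human endometrium, while the other labels, which were followed here, give mouse uterine epithelium. Stat3 itself had signals of 186 in the knockout and 582 in the control for its brightest probe set, or 3.12-fold lower in the knockout. With 1 array per group no difference has a replicate check and no p-value was computed. Differences are therefore given by size, against a limit of 2-fold and a spread between probe sets of 1 gene of 0.31 on the log2 scale (SD, 2853 genes), which covers neither animals nor arrays.

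Prostaglandins are made from arachidonic acid, which the cytosolic phospholipase A2 encoded by Pla2g4a cuts from membrane phospholipids. The cyclooxygenases, Ptgs1 and Ptgs2, turn it into prostaglandin H2, and terminal synthases make prostaglandin E2 (Ptges) or prostacyclin (Ptgis) from that. Prostaglandins act on nearby cells through receptors and are inactivated by oxidation, for which Hpgd encodes the first enzyme. In the mouse uterus this pathway is known for its part in embryo spacing, implantation and decidualisation. Mice without Pla2g4a or without Lpar3 implant late and space their embryos poorly.

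Most of the prostaglandin genes had a higher signal in the Stat3 knockout than in the control. Of the 10 genes, 8 were over the floor on both arrays, and 5 of these 8 reached 2-fold upward in the knockout array: Pla2g4a, Ptgs2, Hpgd, Ptger2 and Ptger3. In 0 of the 8 did the knockout signal lie 2-fold or more below the control. Across the 8304 genes with a ratio, 7.37% reached 2-fold upward and 9.92% downward. All 8 had a log2 ratio above 0, as did 53.4% of all genes with a ratio. The median log2 ratio of the 8 was 1.11, against 0.05 over all genes with a ratio, and single values ran from 0.12 to 1.34. Because the genes were chosen with earlier results of these data known, these counts and shares describe them and are no test. RNA of whole cell preparations was read, so more cells of a type and more RNA per cell cannot be told apart.

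**Figure D1:**
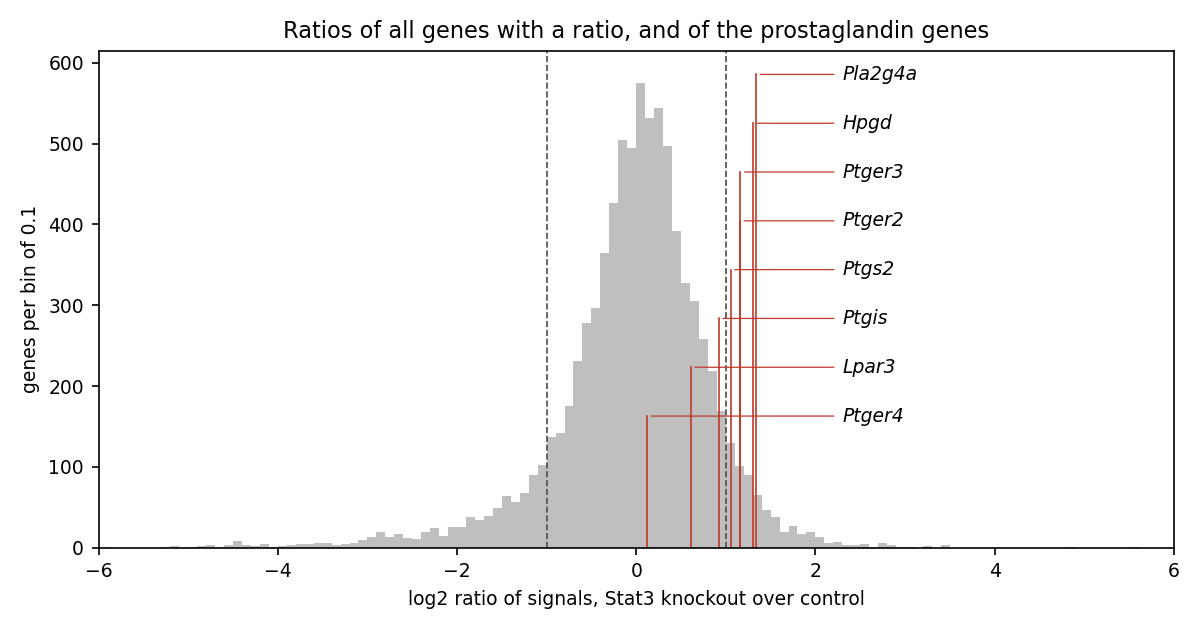
Number of genes (vertical axis, per bin of 0.1) by log2 ratio of signals, Stat3 knockout over control (horizontal axis), for the 8304 genes with a ratio; dashed lines mark 2-fold and red lines the prostaglandin genes. The 5 genes right of the upper dashed line lie between 1.05 and 1.34, while Ptger4 lies near the centre at 0.12.

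Of the genes for the first steps of synthesis, Pla2g4a and Ptgs2 were higher in the knockout, and Ptgs1 was not read. Pla2g4a (gene ID 18783) gave 4231 signal units in the Stat3 knockout array and 1676 in the control array. This was 2.52-fold higher in the knockout, a log2 ratio of 1.34, and a larger ratio than that of 96.8% of the genes with one. Its single probe set, 1448558_a_at, can read several transcripts. Ptgs2 (gene ID 19225), the inducible cyclooxygenase gene, had signals of 102 in the knockout and 49.2 in the control for probe set 1417262_at, or 2.08-fold higher (log2 ratio 1.05). Its dimmer probe set, 1417263_at, had 41.8 in the knockout and 21.1 in the control, a log2 ratio of 0.99. Both probe sets of Ptgs2 thus gave a ratio close to the 2-fold limit, 1 of them just over it and the other just under it. The log2 ratios of Pla2g4a and Ptgs2 differed by 0.28, less than the spread between probe sets of 1 gene.

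Pla2g4a and Ptgs2 are neighbours on chromosome 1. In the RefSeq annotation (GRCm38.p6) no protein-coding gene lies between them, and 2 other genes do, the pseudogene Gm19136 and the long non-coding RNA gene Ptgs2os, neither of which a probe set named. Of the 6 nearest flanking protein-coding genes with a ratio, 3 on each side, 0 reached 2-fold upward and 1 downward. The shares over all genes with a ratio were 7.37% upward and 9.92% downward, so 6 genes are too few to set against them. On the Pla2g4a side, the lower gene Uchl5 had signals of 216 in the knockout and 655 in the control, and the G protein regulator gene Rgs2 had 201 in the knockout and 135 in the control. On the Ptgs2 side, Ivns1abp had 3662 in the knockout and 2274 in the control. The log2 ratios of the 5 flanking genes other than Uchl5 ran from 0.37 to 0.69. These 5 had a higher signal in the knockout, each by less than 2-fold, and 53.4% of all genes with a ratio had one above 0 on the log2 scale. These neighbours were chosen by position, after the member values had been seen.

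The promoters of this neighbouring pair are shown because both genes passed the 2-fold limit and are transcribed away from each other. Promoters here and below are RefSeq sequences (GRCm38.p6) of 300 bases, from 250 before to 50 after the transcription start that the table gives, written 5′ to 3′ on the strand of the gene. The table held 9 of the 10 genes; Ptgis had no entry. Capitals mark matches, on either strand, to 8 motifs: the STAT palindrome TTCNNNGAA and its form with 1 more base between the arms, the TATA box TATAAA, the cyclic AMP response core TGACG, the E-box CACGTG, the C/EBP palindrome TTGCGCAA, the steroid receptor core AGAACA and the palindromic oestrogen response element. The Pla2g4a window is chr1:149961241-149961540 on the minus strand and the Ptgs2 window chr1:150099781-150100080 on the plus strand.
Pla2g4a promoter: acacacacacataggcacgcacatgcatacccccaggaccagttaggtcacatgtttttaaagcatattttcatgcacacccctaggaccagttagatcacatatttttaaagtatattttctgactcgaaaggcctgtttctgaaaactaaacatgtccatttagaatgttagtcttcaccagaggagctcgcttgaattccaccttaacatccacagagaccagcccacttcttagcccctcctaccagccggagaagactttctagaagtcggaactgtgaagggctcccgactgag
Ptgs2 promoter: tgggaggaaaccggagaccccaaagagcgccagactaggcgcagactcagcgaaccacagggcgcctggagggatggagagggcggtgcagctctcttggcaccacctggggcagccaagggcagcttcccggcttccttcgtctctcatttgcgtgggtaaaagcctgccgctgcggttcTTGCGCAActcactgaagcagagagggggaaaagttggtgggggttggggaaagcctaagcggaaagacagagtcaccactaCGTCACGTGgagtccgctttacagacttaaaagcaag
The Pla2g4a window held none of the 8 motifs. Pla2g4a had 2 listed starts, and only the window at the start nearest the annotated 5′ end of the gene was searched. The Ptgs2 window held TTGCGCAA at position -69, which 0.183% of 32851 promoter windows hold. Past the transcription start, near the window's end, it held TGACG on the minus strand at position 14 (20.8% of windows). CACGTG followed at position 17 (7.15%), and these latter matches share 2 bases. Neither STAT palindrome was found in either window. Over the 9 genes with a window, TTCNNNGAA occurred in 0 (8.3% of all windows) and the wider form in 1, Ptges (6.95%). A match describes letters in this window and does not show a binding site, and a missing match covers this window alone.

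The terminal synthases among the named genes were dim or close to the limit. Ptgis (gene ID 19223), the prostacyclin synthase gene, had signals of 84.6 in the knockout and 44.7 in the control, or 1.89-fold higher (log2 ratio 0.92), just under the 2-fold limit. Ptges (gene ID 64292), the inducible prostaglandin E synthase gene, lay below 14.0 in both of its probe sets in the knockout and in the control. Probe set 1449450_at had 4.59 in the knockout and 0.892 in the control, and 1449449_at was dimmer still on both arrays. No ratio is given for Ptges, since neither array measured it above the floor. Synthesis is therefore read here through Pla2g4a, Ptgs2 and Ptgis.

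Beside these values stand the markers of other cells of the uterus. Of 13 stromal markers, 10 had a ratio, and 0 of these were past 2-fold in either direction. The shares over all genes with a ratio were 7.37% upward and 9.92% downward. Of the 10, 9 had a log2 ratio above 0, as did 53.4% of all genes with a ratio. Their median was 0.42, against 0.05 over all genes with a ratio. The stromal markers summed to 3632 in the knockout and 2645 in the control. The stromal transcription factor gene Hand2 was under the floor on both arrays (1.43 in the knockout and 0.612 in the control). Dcn, which encodes the matrix proteoglycan decorin, had signals of 1753 in the knockout and 1235 in the control, so stromal RNA was present on both arrays. Of the 3 mesothelial markers on the array, 2 passed 2-fold upward, and their summed signal was 477 in the knockout and 201 in the control. Upk3b, a marker of the mesothelium that covers the uterus, had 372 in the knockout and 145 in the control, or 2.57-fold higher. This gene made up most of the mesothelial sum on both arrays, and its probe set can read several transcripts. Leukocyte markers summed to 716 in the knockout and 503 in the control (13 genes, of which 6 lay under the floor throughout and 1 passed 2-fold upward). Of the 7 leukocyte markers with a ratio, 6 had a log2 ratio above 0, and the median was 0.69. C1qa, the 1 past 2-fold, had 67.4 in the knockout and 33.2 in the control. Cd68 went the other way, with 44.4 in the knockout and 81.1 in the control. The leukocyte gene Ptprc had 38.2 in the knockout and 34.4 in the control, while the lymphocyte genes Cd3e and Cd79a were under the floor on both arrays. Smooth muscle markers summed to 118 in the knockout and 150 in the control, with 6 of 8, Myh11 and Des among them, under the floor on both arrays. Ptgis is known from stroma, muscle, vessels and mesothelium, and the part of these cells in its ratio, or in that of any other prostaglandin gene, was not tested.

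**Figure D2:**
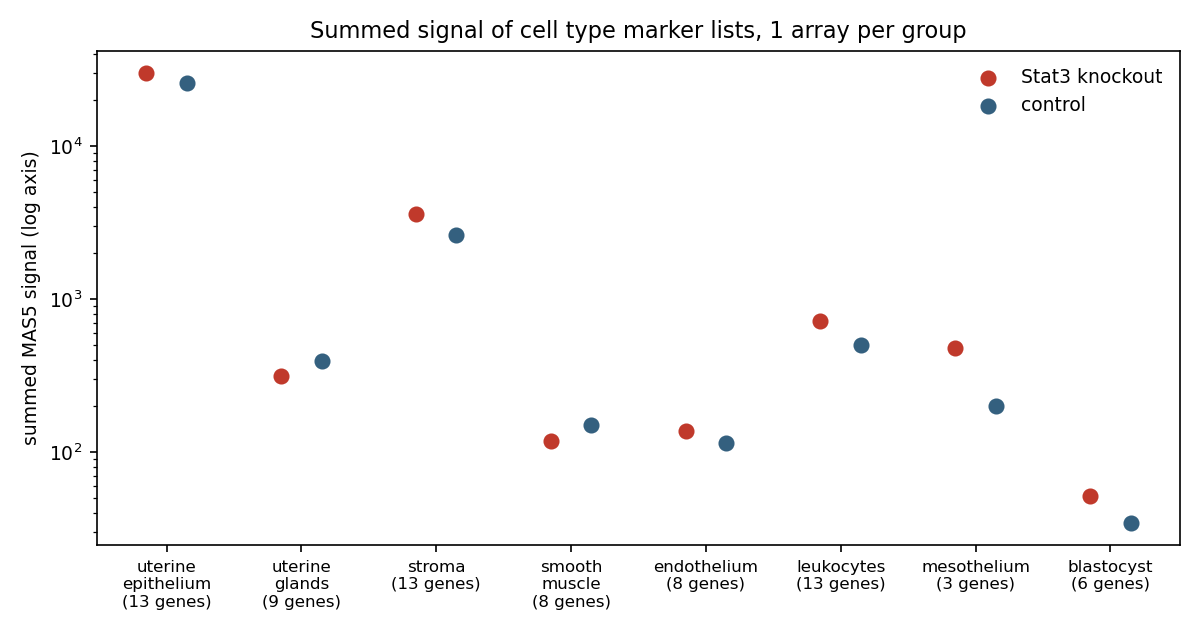
Summed MAS5 signal (vertical log axis) of 8 lists of cell type markers in the Stat3 knockout array (red) and the control array (blue), with the number of genes on the array under each list. Epithelial markers had the highest sums, 30007 in the knockout and 25938 in the control, and the mesothelial list the widest gap upward, with 477 in the knockout and 201 in the control.

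Markers of the labelled cell type, uterine epithelium, were bright. All 13 epithelial markers that the array reads were measured in the knockout and in the control, and their log2 ratios had a median of 0.21. Among these markers 1 passed 2-fold upward and 1 downward. The shares over all genes with a ratio were 7.37% upward and 9.92% downward. Krt8, a keratin gene of simple epithelium, had signals of 4289 in the knockout and 4220 in the control. The marker past the limit upward was Cldn4, with 776.5 in the knockout and 370.7 in the control. The 1 past it downward was Krt7, with 460 in the knockout and 1592 in the control, or 3.46-fold lower. Of 9 gland markers, 7 had a ratio, 1 passed 2-fold upward and 3 downward. Spink1 was 10.9-fold higher, with 155 in the knockout and 14.2 in the control. Sox9 had 3.69, under the floor, in the knockout and 94.9 in the control, a drop of at least 6.76-fold. Aldh1a1 was 2.83-fold lower, with 72.8 in the knockout and 206 in the control, and Lif, with 12.4 (under the floor) in the knockout and 29.8 in the control, was lower by at least 2.12-fold. The summed signal of the gland markers was 312.3 in the knockout and 392.5 in the control. The gland factor gene Foxa2 had 23.9 in the knockout and 22.0 in the control. The part of the glands in the ratios of the prostaglandin genes was not tested. Endothelial markers summed to 138 in the knockout and 114 in the control over 8 genes. Of the 6 blastocyst markers, 5 were under the floor on both arrays, Cdx2 and Nanog among them.

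Hpgd, which encodes the dehydrogenase that starts prostaglandin breakdown, was higher in the knockout like Pla2g4a and Ptgs2. Hpgd (gene ID 15446) had signals of 256 in the knockout and 104 in the control for probe set 1419905_s_at, or 2.47-fold higher (log2 ratio 1.30). That probe set can read several transcripts. The other one, 1419906_at, was under the floor on both arrays, at 7.00 in the knockout and 6.23 in the control, so the Hpgd value rests on 1 probe set. Its log2 ratio differed from that of Pla2g4a by 0.03. Ptgr1, which encodes a reductase that acts on the product of Hpgd, had signals of 1095 in the knockout and 387 in the control, or 2.83-fold higher (log2 ratio 1.50). Ptgr2, which encodes a further reductase of the same step and was named after its values were seen, had 76.2 in the knockout and 63.2 in the control. Its dimmer probe sets had log2 ratios of 0.79 and 1.77, so the probe sets of Ptgr2 disagreed in size and not in direction. The Hpgd promoter is shown as that of the breakdown gene past the limit, at chr8:56294302-56294601 on the plus strand.
Hpgd promoter: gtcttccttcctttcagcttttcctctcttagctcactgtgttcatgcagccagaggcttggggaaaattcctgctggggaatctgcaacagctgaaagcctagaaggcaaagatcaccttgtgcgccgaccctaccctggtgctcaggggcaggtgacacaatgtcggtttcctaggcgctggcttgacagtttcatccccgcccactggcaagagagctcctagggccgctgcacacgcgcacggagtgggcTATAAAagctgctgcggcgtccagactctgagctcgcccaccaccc
Its capitals mark 1 match, TATAAA, which 13.6% of all windows hold. The match begins at base 5 after the transcription start used here and not before that start.

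Of the receptor genes for prostaglandin E2, Ptger2 and Ptger3 were higher in the knockout and Ptger4 was within the limit. EP2 and EP4, encoded by Ptger2 and Ptger4, raise cyclic AMP through the stimulatory G protein, while EP3, encoded by Ptger3, couples mainly to inhibitory G proteins. Ptger2 (gene ID 19217) had signals of 1162 in the knockout and 521 in the control, or 2.23-fold higher (log2 ratio 1.16). Ptger3 (gene ID 19218) had 72.6 in the knockout and 32.4 in the control for probe set 1450344_a_at, or 2.24-fold higher (log2 ratio 1.16). The other Ptger3 probe set, 1425251_at, was under the floor on both arrays. Ptger4 (gene ID 19219) had 1301 in the knockout and 1197 in the control, or 1.09-fold higher (log2 ratio 0.12). Its dimmer probe set, 1421073_a_at, had 109.7 in the knockout and 93.6 in the control, a log2 ratio of 0.23, so both probe sets placed Ptger4 within 2-fold. The log2 ratio of Ptger2 exceeded that of Ptger4 by 1.04 and that of Ptger3 exceeded it by 1.04, both wider than the spread of 0.31 between probe sets of 1 gene. Whether this difference between receptors would hold across animals was not tested. The promoters of Ptger2, past the limit, and of Ptger4, within it, are set side by side because both receptors share a G protein. They lie at chr14:44987861-44988160 on the plus strand and chr15:5244138-5244437 on the minus strand.
Ptger2 promoter: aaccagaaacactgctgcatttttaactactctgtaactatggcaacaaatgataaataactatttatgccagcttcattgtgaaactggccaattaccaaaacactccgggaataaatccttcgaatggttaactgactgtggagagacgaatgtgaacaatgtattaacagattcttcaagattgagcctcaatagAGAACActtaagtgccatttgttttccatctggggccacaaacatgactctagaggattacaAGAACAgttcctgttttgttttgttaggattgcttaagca
Ptger4 promoter: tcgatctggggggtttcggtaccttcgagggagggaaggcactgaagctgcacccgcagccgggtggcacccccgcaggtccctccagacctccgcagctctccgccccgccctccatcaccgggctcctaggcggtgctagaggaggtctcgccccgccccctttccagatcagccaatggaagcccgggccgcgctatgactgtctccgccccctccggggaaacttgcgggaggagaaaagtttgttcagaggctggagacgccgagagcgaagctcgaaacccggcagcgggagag
The Ptger2 window held AGAACA at 2 places, positions -52 and 11 from the transcription start, a motif found in 19.0% of all windows. The Ptger4 window held none of the 8 motifs. Their base composition also differed, with 37.7% G and C in the Ptger2 window and 67.0% in the Ptger4 window.

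**Figure D3:**
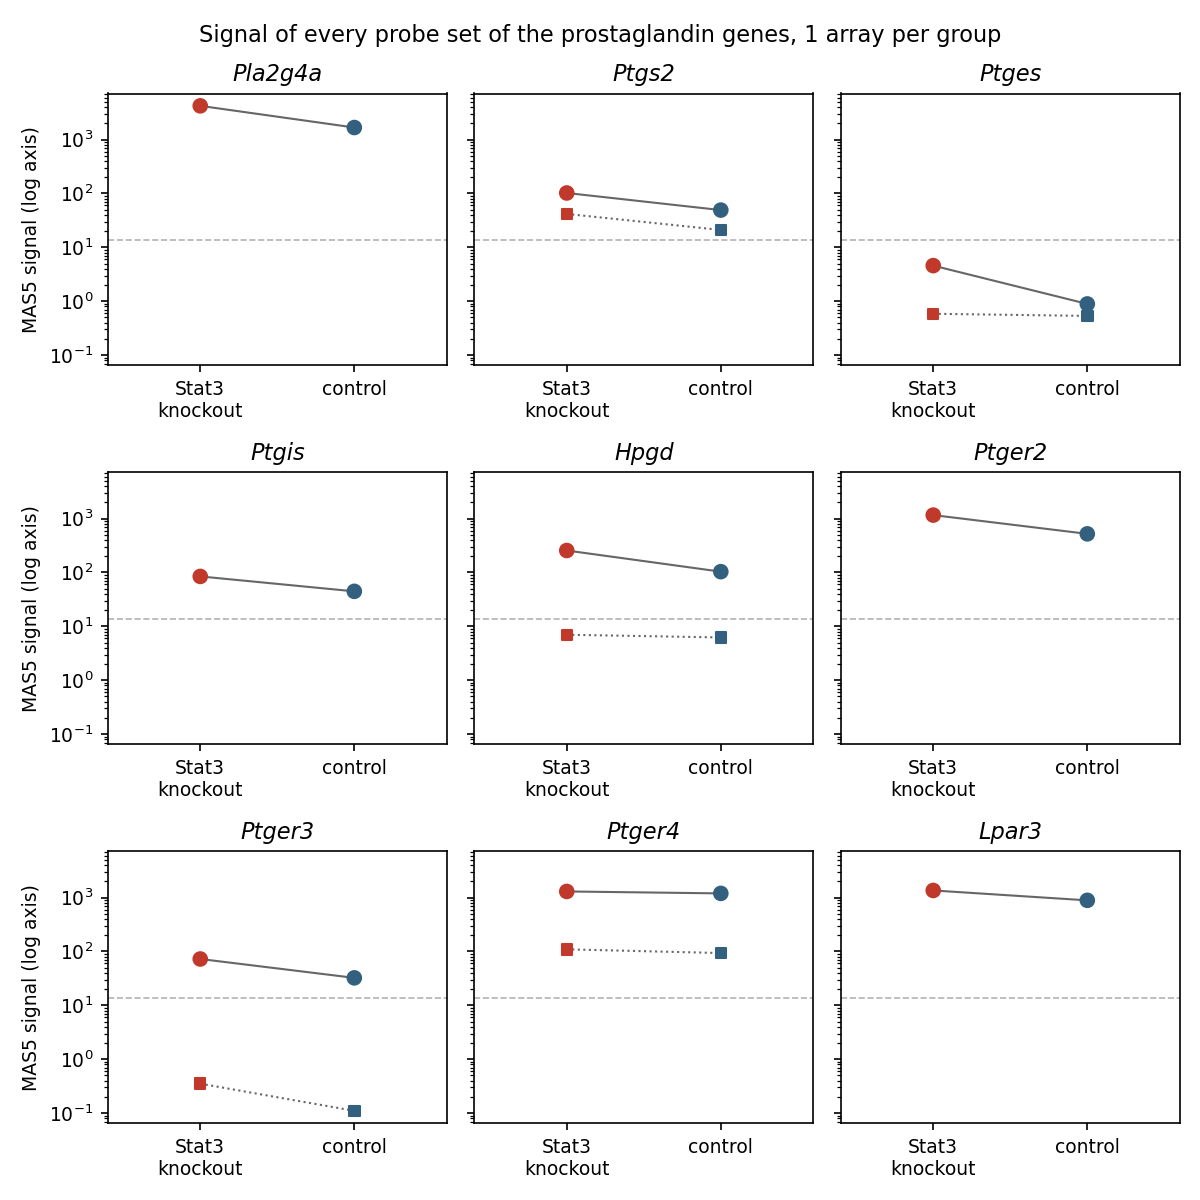
MAS5 signal (vertical log axis) of each of the 14 probe sets of 9 prostaglandin genes in the Stat3 knockout array (red, left) and the control array (blue, right); circles and solid lines are the brightest probe set of a gene, squares and dotted lines the others, and the dashed line is the floor of 14.0. The lines of Pla2g4a, Ptgs2, Hpgd, Ptger2 and Ptger3 slope down toward the control, that of Ptger4 is nearly flat (1301 in the knockout and 1197 in the control), and both probe sets of Ptges lie under the floor.

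The other 7 receptor genes listed with the prostanoids gave no ratio. Ptger1 (EP1), Ptgfr, the receptor gene for prostaglandin F2alpha, Ptgir for prostacyclin, Ptgdr and Ptgdr2 for prostaglandin D2, Tbxa2r for thromboxane and Ptgfrn, a regulator of Ptgfr, were all under the floor on both arrays. Their brightest probe sets ran from 0.540 to 11.9 in the knockout and from 0.224 to 10.3 in the control. Of the receptors for prostaglandins, those of the E type other than EP1 were thus the ones with a measured signal.

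Lpar3 was within the limit. The receptor that it encodes binds lysophosphatidic acid, a signalling lipid, and in mouse uterus lies upstream of Ptgs2. Lpar3 (gene ID 65086) had signals of 1357 in the knockout and 889 in the control, or 1.53-fold higher (log2 ratio 0.61), a larger ratio than that of 81.5% of genes with one. Of 22 genes listed for lysophosphatidic acid reception and turnover, 14 were on the array and 10 had a ratio, of which 0 passed 2-fold upward and 2 downward. The median of these 10 log2 ratios was 0.07. Among all genes with a ratio, 7.37% reached 2-fold upward and 9.92% downward. Lpar1, the gene of another receptor for this lipid, had signals of 40.3 in the knockout and 141 in the control, or 3.49-fold lower (log2 ratio -1.80). A second Lpar1 probe set, 1448606_at, had 27.8 in the knockout and 139 in the control, a log2 ratio of -2.32. Gdpd3, which encodes an enzyme that forms lysophosphatidic acid, had 17.6 in the knockout and 81.3 in the control, or 4.63-fold lower (log2 ratio -2.21). The single probe set of Gdpd3 can read several transcripts. Lpar1 and Gdpd3 therefore had the direction opposite to that of Lpar3. Plpp3, whose product removes the phosphate of the lipid, had signals of 1081 in the knockout and 899 in the control. Plpp2, of the same enzyme family, had 538 in the knockout and 926 in the control. Agpat5, of an acyltransferase that uses the lipid, had 99.3 in the knockout and 113 in the control. Gdpd1, a relative of Gdpd3, had 89.5 in the knockout and 60.8 in the control. These 4 genes, the brightest of the list within 2-fold, lay on both sides of 0.

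The ratios of the wider list of prostanoid genes lay on both sides of 0. Of 50 listed genes, 42 were on the array, 23 had a ratio, 4 passed 2-fold upward in the knockout and 2 downward. The shares over all genes with a ratio were 7.37% upward and 9.92% downward. The median log2 ratio of the 23 was 0.02, against 1.11 for the named genes and 0.05 over all genes. The 4 higher ones were Ptgr1, Ptgds, Pla2g15 and Plaat3. Ptgds, the lipocalin-type prostaglandin D synthase gene, had signals of 75.4 in the knockout and 34.0 in the control, or 2.21-fold higher (log2 ratio 1.15), and a dimmer probe set had 22.2 in the knockout and was under the floor in the control. Pla2g15, which encodes a lysosomal phospholipase, had 40.7 in the knockout and 17.7 in the control, or 2.29-fold higher. Plaat3, which encodes a phospholipase best known from mouse fat tissue and the lens, had 1076 in the knockout and 406 in the control, or 2.65-fold higher.

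The phospholipases A2 went in both directions. Pla2g7, whose product cleaves platelet-activating factor rather than releasing arachidonic acid, had signals of 34.0 in the knockout and 196 in the control, or 5.77-fold lower (log2 ratio -2.53). Pla2g12a, of a secreted phospholipase, had 57.2 in the knockout and 122 in the control, or 2.13-fold lower. Pla2g7 and Pla2g12a each had a single probe set, which can read several transcripts. Pla2g10, of another secreted phospholipase, had 2358 in the knockout and 1411 in the control, a log2 ratio of 0.74. Of the 8 phospholipases with a ratio in this list, 2 were past the limit upward and 2 downward. Among the other enzymes of the list, Cbr2 had signals of 2054 in the knockout and 3434 in the control. Cbr1, whose product can reduce prostaglandin E2, had 283 in the knockout and 252 in the control. Ptges2, of a further prostaglandin E synthase, had 72.3 in the knockout and 126 in the control (log2 ratio -0.81); it was named after its values were seen. Ptges3 has no value here, since no probe set was paired with this gene alone. Fabp5, which encodes a fatty acid carrier, had 123 in the knockout and 238 in the control, a log2 ratio of -0.95, and its dimmer probe set had a log2 ratio of -1.35.

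**Figure D4:**
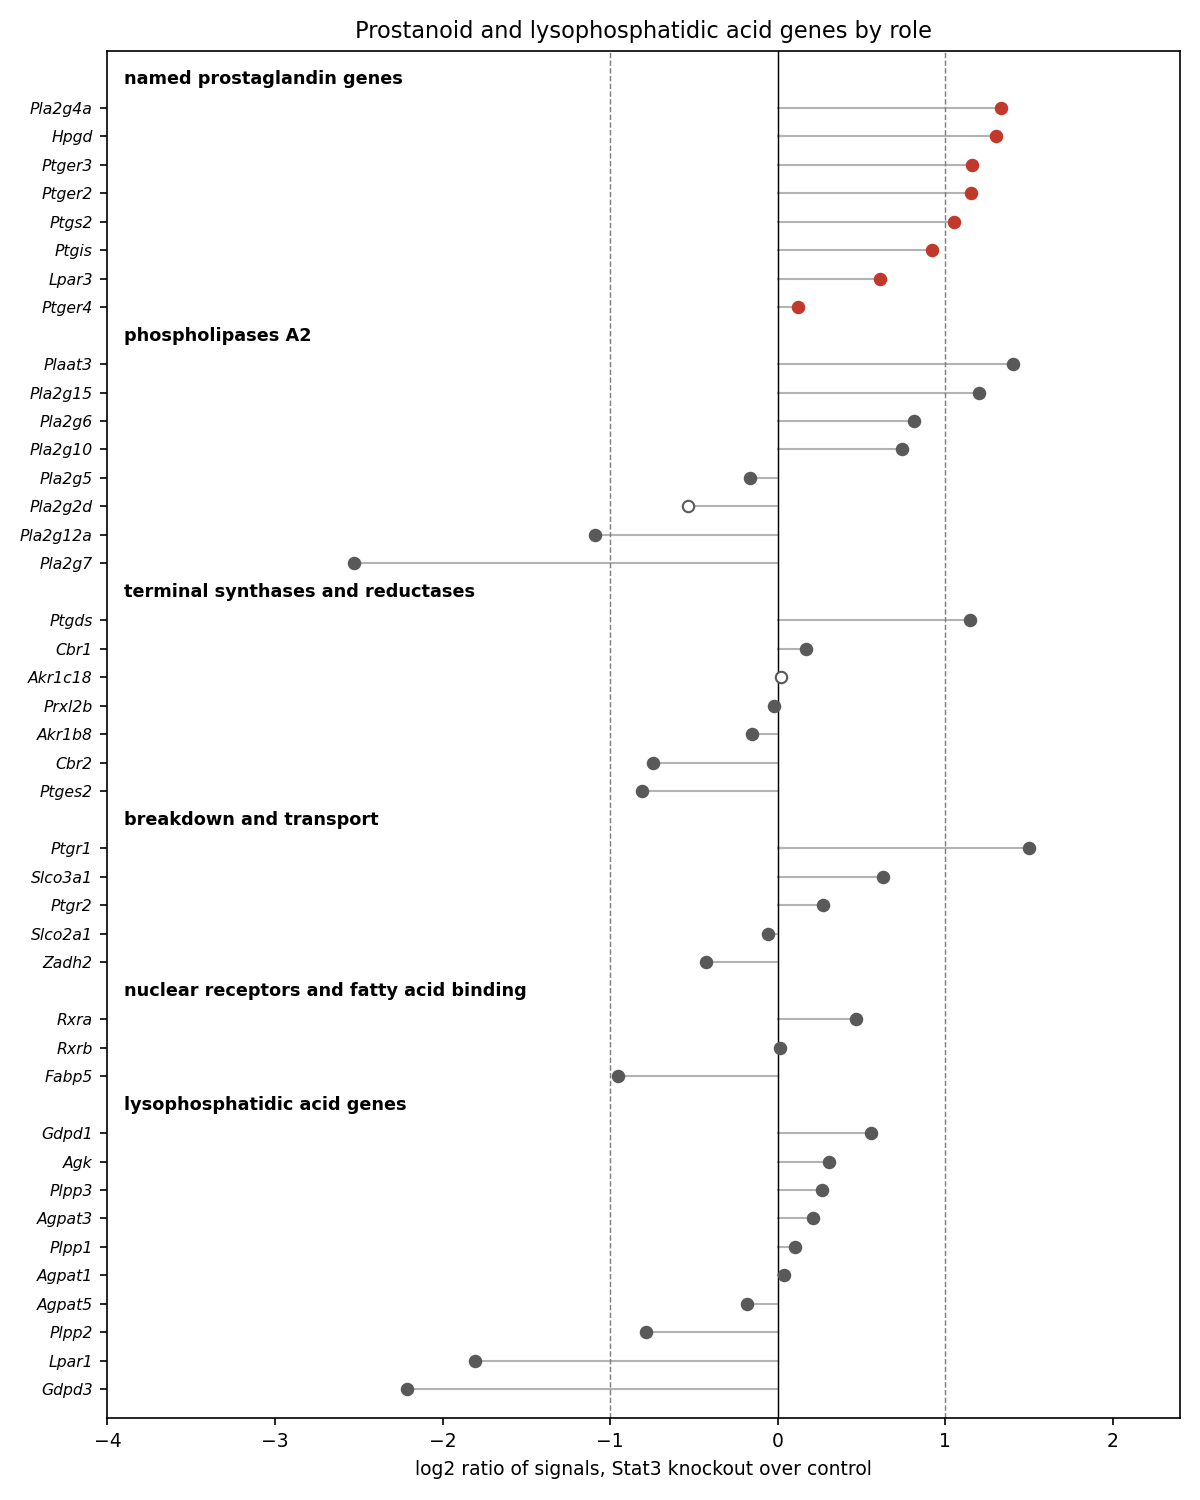
Log2 ratio of signals, Stat3 knockout over control (horizontal axis, dashed lines at 2-fold), of each gene with a ratio, grouped by role; red points are the named prostaglandin genes, grey points the genes of the 2 wider lists, and open points genes under the floor on 1 array, whose ratio is a bound. All 8 red points lie right of 0, while the 23 other prostanoid genes spread from -2.53 to 1.50.

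The count of 5 depended on probe set, floor and scaling. Pla2g4a, Hpgd and Ptger3 passed the limit through probe sets that can read several transcripts, and without such probe sets 5 of the 10 genes kept a ratio and 2, Ptgs2 and Ptger2, were past the limit (7.87% of all genes measured that way). With the floor at the 60th percentile of all signals 3 genes were past it (5.61% of all genes), and the log2 ratio of Ptger3 was 0.17. With loess scaling 4 genes were past it, and the log2 ratio of Ptgs2 was 0.95 (6.07% of all genes were at or past the limit upward).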

How the data were processed

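Uterine epithelial RNA of 1 Stat3 knockout and 1 control sample, each a pool, was read on 1 array per group. The authors deposited 1 intensity per probe set and array on a linear scale; MAS5 and Affymetrix Expression Console 1.1 appear in the submitters' processing notes. Trimmed by 2% at each end, the deposited intensities averaged 150.1 in the knockout and in the control, so scaling preceded deposit. Detection calls were not used here. Groups were taken from the genotype label.

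Of 22690 probe sets, 64 were controls, 20380 had 1 gene, 691 several and 1555 none in the platform annotation; a RefSeq table (GRCm38.p6) gave current symbols for the gene IDs of 20351 of the 20380. The brightest probe set (highest mean log2 signal) stood for a gene. Signals under the floor were set to it, and log2 ratios of knockout over control were taken with no pseudocount, with pandas 2.3.3 and numpy 2.4.6 in Python 3.11.15; the ratio code was tested on simulated data. The number of arrays limits the precision. Under the floor on 1 array, a ratio is a bound.

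The members, gene lists, motifs and settings were chosen with earlier results of these data known. All members were named, with every listed prostanoid and lysophosphatidic acid gene past 2-fold and up to 4 others of each list with the highest signal. Alternatives changed scaling (median centring, quantile, loess with span 0.3 from statsmodels 0.14.6), floor (20th or 60th percentile, none, or added to both signals), probe set (mean of all, or shared ones left out) and limit (3-fold).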

Additional observations from a re-analysis of the deposited data

How the results depend on the processing

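The 8 ratios of prostaglandin genes stayed above 0 under all alternatives that gave a value; the 3-fold limit changes counts only. Log2 ratios ran from 1.32 to 1.40 for Pla2g4a, 1.20 to 1.37 for Hpgd, 1.14 to 1.22 for Ptger2, 0.10 to 0.18 for Ptger4 and 0.60 to 0.67 for Lpar3. With the floor at the 60th percentile they were 0.67 for Ptgs2, 0.40 for Ptgis and 0.17 for Ptger3, where the control signal is replaced by a higher floor, and the median of the members was 0.64. Members past the limit upward then numbered 3 (5.61% of all genes), as they did with the floor value added as a pseudocount (3.46%). They numbered 4 with loess scaling (6.07%), where Ptgs2 had 0.95, 6 with no floor (15.5%), 2 with shared probe sets left out (7.87%) and 0 at 3-fold (1.72%). Ptges had a log2 ratio of 0.41 with the floor at the 20th percentile, 2.36 with no floor and 0.32 with the pseudocount. Other prostanoid genes at least 2-fold higher numbered 2 at the 60th percentile (5.61% of all genes) and with the pseudocount (3.46%). They numbered 12 of 42 with no floor (15.5%), against 4 of 23 in the main setting (7.37%), and 0 at 3-fold (1.72%). Those lower numbered 4 at the 20th percentile (10.2% of all genes) and 5 of 42 with no floor (14.3%). The lower count was 1 each at the 60th percentile (7.27%), with the pseudocount (5.4%), without shared probe sets (9.74%) and at 3-fold (4.83%). Without shared probe sets this 1 was Fabp5, through its dimmer probe set (log2 ratio -1.355), as Pla2g7 and Pla2g12a then had none. Lysophosphatidic acid genes at least 2-fold lower numbered 1 at the 60th percentile (7.27% of all genes) and 1 of 8 without shared probe sets (9.74%). Lower counts without shared probe sets come with fewer genes measured, and counts with no or a lower floor with more. The cause of the other changes was not tested. Median centring, quantile and loess scaling set the median log2 ratio of all genes at 0.11, 0.055 and -0.03, against 0.05. No paired analysis was possible because each group has 1 array, and leaving out a replicate was not possible for the same reason. Low signals near the floor limit Ptges, Ptgis, Ptger3 and Ptgs2.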

Other observations

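The genes of the cyclic AMP pathway, through which EP2 and EP4 act, had ratios centred like those of all genes. This list of 44 genes was chosen after the values of the receptors had been seen. Of its 33 genes on the array 20 had a ratio, of which 1 passed 2-fold upward and 0 downward, and their median log2 ratio was 0.05. Over all genes with a ratio, 7.37% passed 2-fold upward, 9.92% passed it downward, 82.7% lay within it, and the median was 0.05. The stimulatory G protein gene Gnas had signals of 1789 in the knockout and 1851 in the control, and the inhibitory G protein gene Gnai3 had 663 in the knockout and 754 in the control. Of the adenylyl cyclase genes, whose products make cyclic AMP, Adcy9 had 245 in the knockout and 136 in the control (log2 ratio 0.85) and Adcy6 had 402 in the knockout and 266 in the control (log2 ratio 0.59). The dimmer probe sets of Adcy9 had log2 ratios of 1.11 and 0.52, on both sides of the limit. Pde7a, a phosphodiesterase gene whose product breaks cyclic AMP down, was the 1 gene past the limit, with 288 in the knockout and 137 in the control, or 2.11-fold higher. The dimmer probe sets of Pde7a had log2 ratios of 0.83, 0.41 and 1.17. Its brightest probe set can read several transcripts. Without such probe sets 0 genes of the list were at least 2-fold higher by their brightest remaining probe set. The regulatory subunit gene of protein kinase A, Prkar1a, had 695 in the knockout and 657 in the control.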
